A study of Mus musculus with 12 samples.

Results

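In all, 9 genes for cell surface markers that are used to follow reprogramming were examined: Thy1, Cd44, Cd200, Nt5e, Icam1, Itga4, Pecam1, Kit and Fut4. They were described by every counted region that overlaps the mm10 span of the gene or lies within 10 kb of either end, singly and summed. This gave 52 of 115000 regions, and 9 of the 18088 protein-coding genes with a region. Accessibility had been measured by ATAC-seq, in which the Tn5 transposase inserts adapters into open chromatin, in mouse embryonic fibroblasts (MEF), Stage1 cells (day 6), Stage2 cells (day 6 and 4 further days) and established induced pluripotent stem cells (iPSC), with 3 libraries in each of the 4 groups. All 12 libraries came from a mixed C57BL/6 x 129 strain. The labels name 3c enhanced reprogramming without saying what 3c is. Stage1, Stage2 and iPSC were sorted for the Oct4-GFP reporter and MEF were unsorted, so the sort and the change of stage cannot be told apart in any comparison with MEF. The origin of the replicates was not stated, and their spread, which the p-values rest on, may be technical. The values stand for open chromatin near a gene, and not for its RNA or for the protein on the cell surface. In bulk cells, a region open in fewer cells and a region less open in each cell cannot be told apart.

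The libraries held 1034936 to 6261903 reads in regions. That was 16.7% ± 5.37 of all reads in MEF, 7.64% ± 0.415 in Stage1, 6.03% ± 0.813 in Stage2 and 4.94% ± 0.395 in iPSC (SD, n = 3 each). Because of this difference levels are given in CPM, the count scaled to reads in regions, after TMM normalisation. An expected background is the read density of the same library outside the regions, carried over to the width of the region. The ratio to it is given for the sum of each gene and for some regions. Scaling to every read of a library, inside and outside the regions, moved the median change over all genes (log2) by -0.95 in Stage1 against MEF, -0.39 in Stage2 against Stage1, -0.36 in iPSC against Stage2 and -1.69 in iPSC against MEF. It is called whole-library scaling here, and a direction that it turns is named beside the value. Counts of members called with it, or with any other alternative to the main fit, are given without the share of all genes or regions. They therefore describe the setting more than the members. Of the defining genes of each end point, 9 of 10 fibroblast genes were called lower and 9 of 10 pluripotency genes higher in Stage1 against MEF (10 lower, and 8 higher with 1 lower, with whole-library scaling). Over all genes, 32.7% were called lower and 32.4% higher without that scaling. A gene or region was called when the Benjamini-Hochberg adjusted p of the edgeR quasi-likelihood test, adjusted over all genes or regions tested, was under 0.05. Regions are numbered by coordinate within a gene. The sums per gene were scaled in a table of their own, so the CPM of regions do not add up to those of genes.

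Surface antigens let living cells be sorted while they are being reprogrammed. Thy1 and Cd44 mark fibroblasts and are known to be lost in cells that go on to pluripotency, Icam1 is gained late, and the SSEA-1 sugar epitope, which the fucosyltransferase Fut4 can build, appears in between. Nt5e (CD73), Itga4 (CD49d) and Cd200 have been used as markers of short-lived intermediate states, and Pecam1 (CD31) and Kit (CD117) are carried by mouse embryonic stem cells besides endothelium, mast cells, germ cells and blood progenitors.

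A promoter sequence in RefSeq (GRCm38.p6, which is mm10) matched 7 of the 9 genes, all but Thy1 and Pecam1. The 6 promoters below are shown because a counted region lay over the start of the gene and was called in Stage1 or iPSC against MEF. Each runs 5′ to 3′ from 250 bases before the start to 50 after it, and capitals mark a GC box (GGGCGG or its reverse complement CCGCCC) or TATAAA. The positions are chr2:102901616-102901915 on the minus strand for Cd44, chr16:45409004-45409303 on the minus strand for Cd200, and on the plus strand chr9:88327359-88327658 for Nt5e, chr9:21015690-21015989 for Icam1, chr2:79255176-79255475 for Itga4 and chr5:75574737-75575036 for Kit.
Cd44: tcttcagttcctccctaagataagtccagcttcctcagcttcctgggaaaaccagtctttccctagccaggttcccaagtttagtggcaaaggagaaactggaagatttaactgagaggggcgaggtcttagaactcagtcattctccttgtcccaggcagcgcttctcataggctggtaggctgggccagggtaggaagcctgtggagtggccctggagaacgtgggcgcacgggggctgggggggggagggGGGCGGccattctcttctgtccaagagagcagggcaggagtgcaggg
Cd200: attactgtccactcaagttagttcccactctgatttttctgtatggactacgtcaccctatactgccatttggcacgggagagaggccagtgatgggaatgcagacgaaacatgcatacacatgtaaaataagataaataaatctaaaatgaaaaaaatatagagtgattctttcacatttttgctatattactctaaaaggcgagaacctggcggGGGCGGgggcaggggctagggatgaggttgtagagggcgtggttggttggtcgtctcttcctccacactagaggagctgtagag
Nt5e: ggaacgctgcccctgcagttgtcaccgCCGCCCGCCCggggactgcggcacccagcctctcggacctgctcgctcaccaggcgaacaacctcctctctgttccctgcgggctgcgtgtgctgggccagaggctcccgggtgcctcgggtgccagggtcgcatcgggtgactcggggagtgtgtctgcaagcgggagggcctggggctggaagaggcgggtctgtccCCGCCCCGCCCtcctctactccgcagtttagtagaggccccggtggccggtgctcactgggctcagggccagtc
Icam1: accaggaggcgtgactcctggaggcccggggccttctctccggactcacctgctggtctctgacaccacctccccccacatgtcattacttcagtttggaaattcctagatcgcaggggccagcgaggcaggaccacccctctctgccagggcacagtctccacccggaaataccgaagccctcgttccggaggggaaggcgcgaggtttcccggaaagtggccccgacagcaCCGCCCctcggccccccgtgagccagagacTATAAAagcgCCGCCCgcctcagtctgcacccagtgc
Itga4: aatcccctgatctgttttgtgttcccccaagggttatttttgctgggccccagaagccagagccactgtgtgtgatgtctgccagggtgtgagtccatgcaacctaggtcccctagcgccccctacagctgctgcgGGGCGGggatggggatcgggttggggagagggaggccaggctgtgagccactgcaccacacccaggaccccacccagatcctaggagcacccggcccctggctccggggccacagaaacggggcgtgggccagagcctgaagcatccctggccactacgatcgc
Kit: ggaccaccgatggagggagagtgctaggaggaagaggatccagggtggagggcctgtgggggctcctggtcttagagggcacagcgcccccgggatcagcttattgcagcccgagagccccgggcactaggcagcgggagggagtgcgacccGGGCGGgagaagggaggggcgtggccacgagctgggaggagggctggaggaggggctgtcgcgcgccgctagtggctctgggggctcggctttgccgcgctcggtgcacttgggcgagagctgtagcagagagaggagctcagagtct

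A GC box was found in every one of these 6 windows and in 46.3% of all 17492 promoters, while TATAAA was found in Icam1 alone of the 6 and in 13.3% of all. None of the 6 held the AP-1 letters TGANTCA (7.08% of all), CCAAT (39.0%), the octamer ATGCAAAT (1.71%) or CACGTG (7.90%), searched on both strands. GC content was 71% in Nt5e and 69% in Kit, against a median of 56.3% over all promoters, and 45% in Cd200. These matches describe the letters of the windows and identify no bound site.

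Summed over their regions, the 9 genes fell into 3 kinds. Thy1, Cd44 and Cd200 were lower in all 3 later groups than in MEF, with whole-library scaling too. Icam1, Nt5e, Itga4, Pecam1 and Kit were called higher in iPSC than in MEF by CPM of reads in regions, but with whole-library scaling the first 4 turned negative and Kit, at a log2 change of 0.25, was no longer called. Fut4 was called in none of the 6 comparisons on the first scale. In Stage1 against MEF, 3 genes were called higher (Nt5e, Icam1, Kit) against 32.4% of all 17540 genes tested, and 3 were called lower (Thy1, Cd44, Cd200) against 32.7%. In iPSC against MEF the counts were 5 higher and 3 lower, beside 32.8% and 32.2% of all genes. In Stage2 against MEF they were 4 higher (Icam1, Nt5e, Kit, Pecam1) and 3 lower, beside 33.5% and 33.7%. With whole-library scaling none of these 4 was higher, as Nt5e (-0.77) and Pecam1 (-0.80) were called lower and Icam1 (-0.41) and Kit (0.32) were not called, and Pecam1 was also not called with equal reads (0.28, adjusted p = 0.243) or region-table scaling (0.31, 0.0586), in which genes take the scaling of the region table. The median log2 fold change of the 9 genes was -0.01 in Stage1 against MEF and 0.74 in iPSC against MEF, beside -0.01 in both comparisons over all genes. With whole-library scaling the median of 0.74 turned to -0.98, the value of Nt5e, beside the shift over all genes given above.

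**Figure D1:**
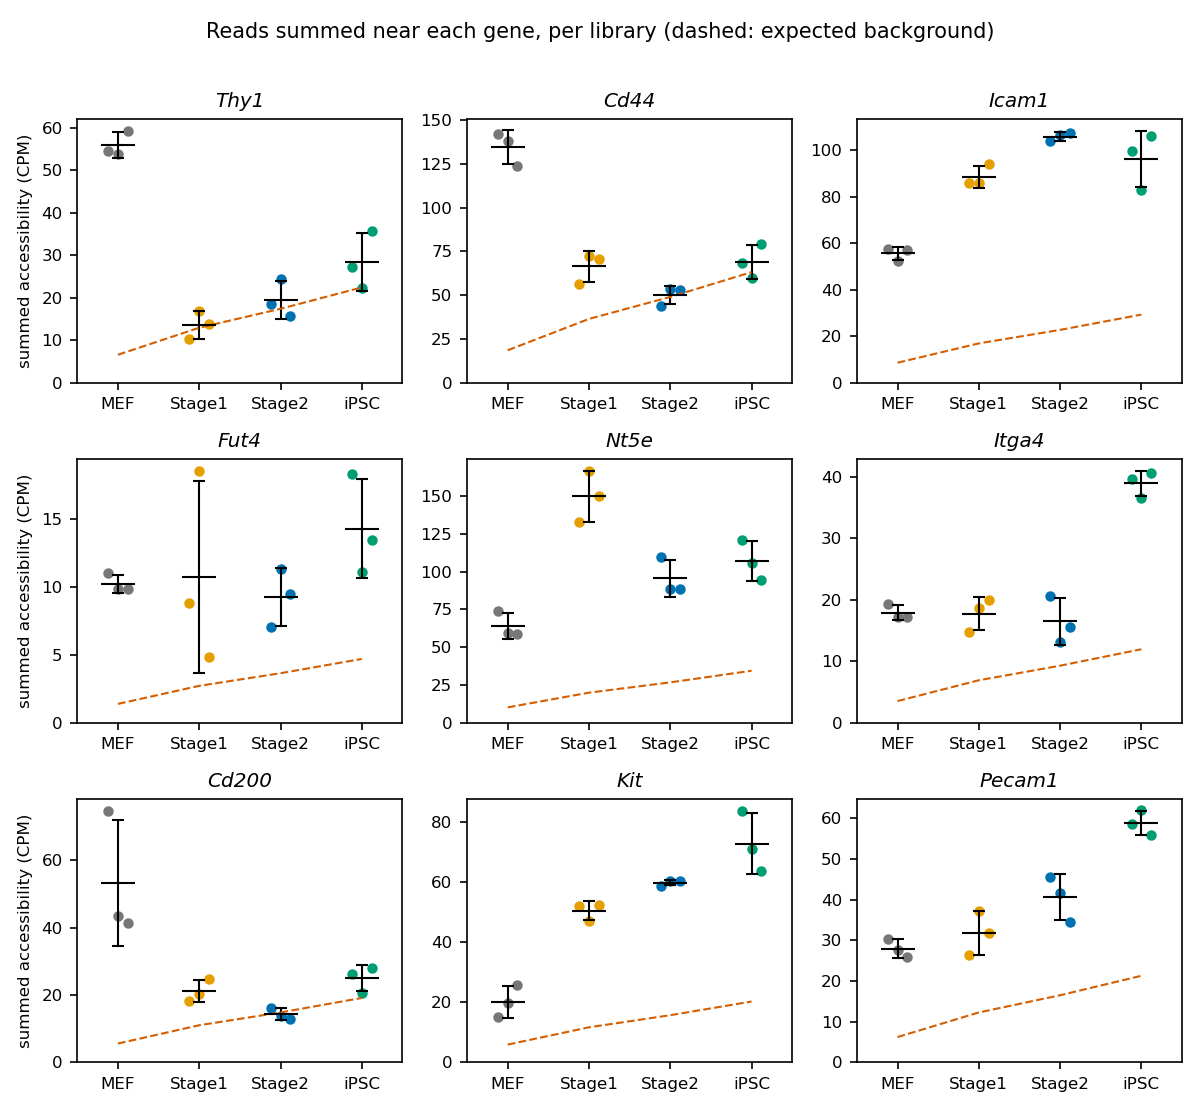
Summed accessibility (CPM, linear axis from 0) of each gene in each of the 12 libraries; points are libraries, bars the mean and SD of 3, and the dashed line the expected background. Thy1, Cd44 and Cd200 stand closer to the dashed line in the later groups than in MEF, while the iPSC values of Icam1, Nt5e, Itga4 and Pecam1 stand above those of MEF on this scale and would be lower with whole-library scaling.

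Single regions moved more, and in both directions within one gene. Of the 52 regions 37 passed the filter on low counts, which works on CPM. They were 15 of the 28 that the authors list in MEF alone, 13 of the 15 not listed in MEF, and all 9 others. Over all regions, 25945 of 64720 listed in MEF alone passed, and 24127 of 29029 not listed in MEF. The counts below thus leave out more of the regions listed in MEF alone. For Stage1 against MEF 17 were called higher and 14 lower, beside 40.2% and 40.3% of all 71069 regions tested. In iPSC against MEF 19 were called higher and 14 lower, beside 40.8% of all regions in each direction. With whole-library scaling 11 member regions remained higher in each of these comparisons. In Stage1 against MEF they were Nt5e 1, 3 and 5, Kit 1, 4 and 5, Cd44 2 and 11, Pecam1 3 and 5, and Icam1 6.

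**Figure D2:**
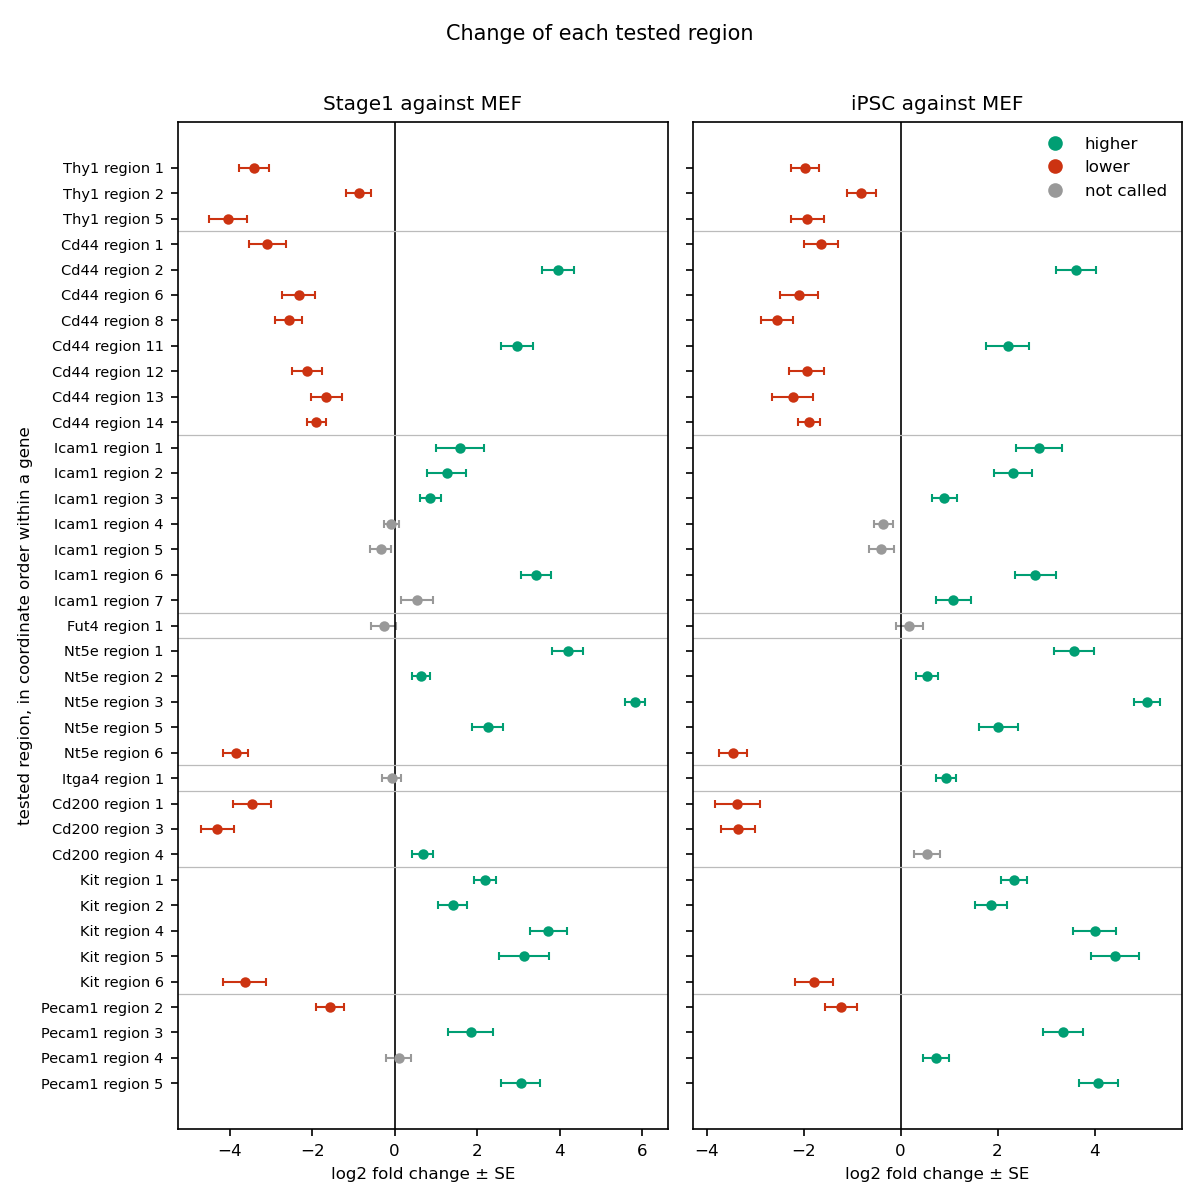
Log2 fold change with its SE for the 37 tested regions, in Stage1 against MEF (left) and iPSC against MEF (right); colours mark regions called higher, lower or not called. Thy1 regions lie left of 0 in both panels and Cd44, Nt5e, Kit and Pecam1 hold regions on both sides. With whole-library scaling Nt5e 2, Cd200 4, Pecam1 4 and Icam1 7 turn from right to left of 0 in both panels, as do Icam1 3, Fut4 1 and Itga4 1 in the right panel.

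Thy1 encodes a small glycoprotein held by a lipid anchor on fibroblasts, neurons and T cells. Its sum was 54.5, 53.8 and 59.3 CPM in MEF, 10.3, 16.8 and 13.8 CPM in Stage1, 18.5, 24.4 and 15.6 CPM in Stage2, and 27.1, 22.2 and 35.7 CPM in iPSC. Every later library lay below every MEF library, and the mean was lowest in Stage1. The log2 fold change was -2.04 ± 0.19 (SE, adjusted p = 8.86e-16) in Stage1 against MEF and -0.99 ± 0.16 (adjusted p = 2.73e-07) in iPSC against MEF. The Stage1 sum rests on 14, 19 and 23 reads, and was 1.06 times the expected background, as against 1.1 times in Stage2, 1.27 times in iPSC and 8.52 times in MEF. Thy1 was higher in iPSC than in Stage1 (log2 1.05 ± 0.24, adjusted p = 0.000844), which whole-library scaling reduced to 0.30 (adjusted p = 0.44).

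All 5 regions near Thy1 are in the MEF list and in no other. The largest MEF values were at region 1 (chr9:44039601-44040300), below the low end of the gene, with 22.0, 24.7 and 24.9 CPM in MEF and 2.27, 2.61 and 1.83 CPM in Stage1. Region 5 (chr9:44058451-44059150), which is also within reach of Usp2, had 16.6, 15.6 and 19.3 CPM in MEF, 0.756, 0.869 and 1.22 CPM in Stage1, 2.75, 4.20 and 3.36 CPM in Stage2, and 4.26, 4.52 and 4.54 CPM in iPSC. Its Stage1 libraries held 1, 1 and 2 reads. Region 2 (chr9:44043001-44043650), which lies across the low end, changed less: 5.29, 8.69 and 9.15 CPM in Stage1 against 15.6, 14.7 and 11.6 CPM in MEF, a log2 fold change of -0.87 ± 0.30 (adjusted p = 0.00537). That call was lost with no filter on low counts (-0.36, adjusted p = 0.286), with only the 2 groups fitted (-0.52, 0.108), with equal reads (-0.28, 0.518) and without Stage1 replicate 1 (-0.52, 0.149). Counted over the gene span alone, where region 2 holds most reads, the change of Thy1 was -0.73 (adjusted p = 0.0109) in Stage1 against MEF and -0.44 (adjusted p = 0.132) in iPSC against MEF. Within 50 kb it was -0.78 and -0.39 (adjusted p = 3.88e-09 and 0.000529).

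Cd44, the receptor for the matrix sugar hyaluronan, had the most regions, 15 over a span of 90529 bases. Its sum was 142.3, 137.9 and 123.8 CPM in MEF, 56.4, 72.6 and 71.0 CPM in Stage1, 44.0, 53.6 and 52.9 CPM in Stage2, and 68.2, 59.6 and 79.1 CPM in iPSC. The MEF libraries stood apart from all others, and those of Stage1 and iPSC overlapped. The log2 fold change in Stage1 against MEF was -1.02 ± 0.11 (adjusted p = 6.27e-13). The ratio to the expected background was 7.28 in MEF, 1.83 in Stage1, 1.02 in Stage2 and 1.09 in iPSC. With regions out to 50 kb the change in Stage1 against MEF was -1.71 (adjusted p = 5.14e-20).

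The regions of Cd44 split. Of the 8 tested, 6 were lower and 2 higher in Stage1 than in MEF. Region 14 (chr2:102901201-102901950) covers the start of the gene, whose promoter is given above, and had 7.56, 13.0 and 12.2 CPM in Stage1 against 43.6, 41.7 and 36.1 CPM in MEF, a log2 fold change of -1.90 ± 0.22 (adjusted p = 1.66e-12). At 21.9 times the expected background it was the strongest region of the gene in MEF, and it was at 3.47 times in Stage1, 1.36 times in Stage2 and 2.11 times in iPSC. Region 8 (chr2:102873101-102874000), 28.1 kb into the gene, showed the largest fall in iPSC, with 2.13, 3.77 and 6.36 CPM against 28.1, 23.1 and 16.9 CPM in MEF. Region 2 (chr2:102815401-102816000), 86.0 kb from the start, went the other way, with 13.6, 13.9 and 21.4 CPM in Stage1 against 0.594, 1.36 and 1.2 CPM in MEF, a log2 fold change of 3.97 ± 0.39 (adjusted p = 4.73e-16). It is absent from the MEF list and present in those of Stage1, Stage2 and iPSC. Region 11, 12.7 kb into the gene, was higher as well, at 12.5 ± 5.46 CPM in Stage1, against 1.53 ± 0.307 CPM in MEF (SD, n = 3 each; log2 2.97 ± 0.38, adjusted p = 4.55e-11), and averaged 4.70 CPM in Stage2.

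Cd200 encodes a membrane glycoprotein that signals to an inhibitory receptor on myeloid cells. Its sum was 74.7, 43.6 and 41.4 CPM in MEF, 18.3, 20.4 and 24.7 CPM in Stage1, 16.3, 13.7 and 12.9 CPM in Stage2, and 26.4, 20.7 and 28.0 CPM in iPSC. MEF replicate 1 stood far above the other MEF libraries, yet all 3 were above every later library. The log2 fold change in Stage1 against MEF was -1.35 ± 0.21 (adjusted p = 6.92e-07), and -0.98 (adjusted p = 5.56e-07) without that library. In iPSC against MEF it was -1.13 ± 0.21 (adjusted p = 1.51e-05), and -0.80 (adjusted p = 3.47e-05) without it. Relative to the expected background, the sum of Cd200 was at 9.50 times in MEF, 1.91 times in Stage1, 0.963 times in Stage2 and 1.31 times in iPSC.

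Away from its start Cd200 fell more steeply. Region 3 (chr16:45383651-45384400), 25.03 kb into the gene, had 1.51, 2.61 and 0.610 CPM in Stage1 against 41.4, 26.3 and 19.3 CPM in MEF, a log2 fold change of -4.30 ± 0.40 (adjusted p = 4.3e-17). Region 1, past the end of the gene, changed by -3.46 ± 0.46 (adjusted p = 9.8e-11). Region 4 (chr16:45408551-45409300) covers the start and is shared with Gm609. It had 13.6, 15.6 and 22.0 CPM in Stage1 against 13.3, 7.71 and 11.6 CPM in MEF, and was called higher (log2 0.68 ± 0.25, adjusted p = 0.0123), but it turned to -0.07 with whole-library scaling, and was not called with the DESeq2 test (adjusted p = 0.0594), with equal reads (0.44, 0.231), or without MEF replicate 2 (0.0858) or Stage1 replicate 3 (0.0989). The same region was not called in iPSC against MEF (0.55, adjusted p = 0.0507), and was called lower with whole-library scaling (-0.86, adjusted p = 0.026). The start region held 79.4% ± 7.96 of the reads of the gene in Stage1, against 18.1% ± 5.58 in MEF (SD, n = 3 each; two-sided exact permutation p = 0.1, the smallest that 3 against 3 allow, adjusted 0.188 over 32 such tests). With regions of no other gene, which drops the start region, Cd200 changed by -3.41 (adjusted p = 7.27e-15) in Stage1 against MEF and by -2.57 (adjusted p = 1.79e-12) in iPSC against MEF. Over the gene span alone the changes were -0.88 and -0.79, and within 50 kb -0.76 in Stage1 against MEF.

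Nt5e is the ecto-nucleotidase CD73, which splits AMP into adenosine and phosphate outside the cell. Its sum was 73.7, 59.3 and 58.6 CPM in MEF, 132.6, 166.4 and 150.4 CPM in Stage1, 109.8, 88.7 and 88.2 CPM in Stage2, and 120.9, 105.7 and 94.5 CPM in iPSC. All Stage1 libraries were above all others. Against the expected background the sum stood at 6.36 times in MEF, 7.57 times in Stage1, 3.59 times in Stage2 and 3.12 times in iPSC. The log2 fold change in Stage1 against MEF was 1.21 ± 0.11 (adjusted p = 1.35e-16), and 0.24 (adjusted p = 0.381) with whole-library scaling. In iPSC against MEF it was 0.74 ± 0.12 (adjusted p = 6.34e-08), and -0.98 (adjusted p = 0.000283) with whole-library scaling. The sum hides opposite changes: with regions of no other gene, Nt5e changed by 3.05 (adjusted p = 1.1e-44) in Stage1 against MEF and by 2.37 (adjusted p = 9.16e-32) in iPSC against MEF. Over the gene span alone the values were 2.87 and 2.36, and within 50 kb 0.51 in iPSC against MEF.

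Region 3 of Nt5e (chr9:88332151-88333100), 5.02 kb into the gene, made the largest change of the 37 tested regions in both of these comparisons. It had 0.990, 1.59 and 1.61 CPM in MEF, 75.6, 82.5 and 81.2 CPM in Stage1, 59.0, 46.2 and 41.7 CPM in Stage2, and 53.3, 48.2 and 39.0 CPM in iPSC. These are 5, 7 and 4 reads in MEF and 100, 95 and 133 reads in Stage1. The 3 later groups lay far above MEF, and Stage1 lay above Stage2 and iPSC without overlap. The log2 fold change was 5.83 ± 0.24 (adjusted p = 8.73e-39) in Stage1 against MEF, and 5.13 with whole-library scaling. The ratio to the expected background was 0.595 in MEF, 20.0 in Stage1, 9.17 in Stage2 and 7.17 in iPSC. The region held 53.0% ± 2.37 of the reads of Nt5e in Stage1, against 1.92% ± 0.689 in MEF (SD, n = 3 each; two-sided exact permutation p = 0.1, adjusted 0.188). Region 1, 8.21 kb before the start, was higher as well, at 22.6 ± 5.32 CPM in Stage1, against 1.51 ± 1.5 CPM in MEF (SD, n = 3 each; log2 4.19 ± 0.37, adjusted p = 3.61e-18).

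Past the far end of Nt5e, region 6 (chr9:88372801-88373550), which is also near Snx14, had 3.02, 2.61 and 3.66 CPM in Stage1 against 56.9, 43.7 and 36.1 CPM in MEF, a log2 fold change of -3.85 ± 0.30 (adjusted p = 6.23e-21). It was at 24.6 times the expected background in MEF, and between 0.829 and 1.06 times in the later groups. Region 2 (chr9:88327251-88328050), over the start and its GC-rich promoter, is in all 4 lists. It had 18.9, 31.3 and 22.6 CPM in Stage1 against 17.6, 12.5 and 16.1 CPM in MEF (log2 0.64 ± 0.22, adjusted p = 0.00647), and -0.09 with whole-library scaling.

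**Figure D3:**
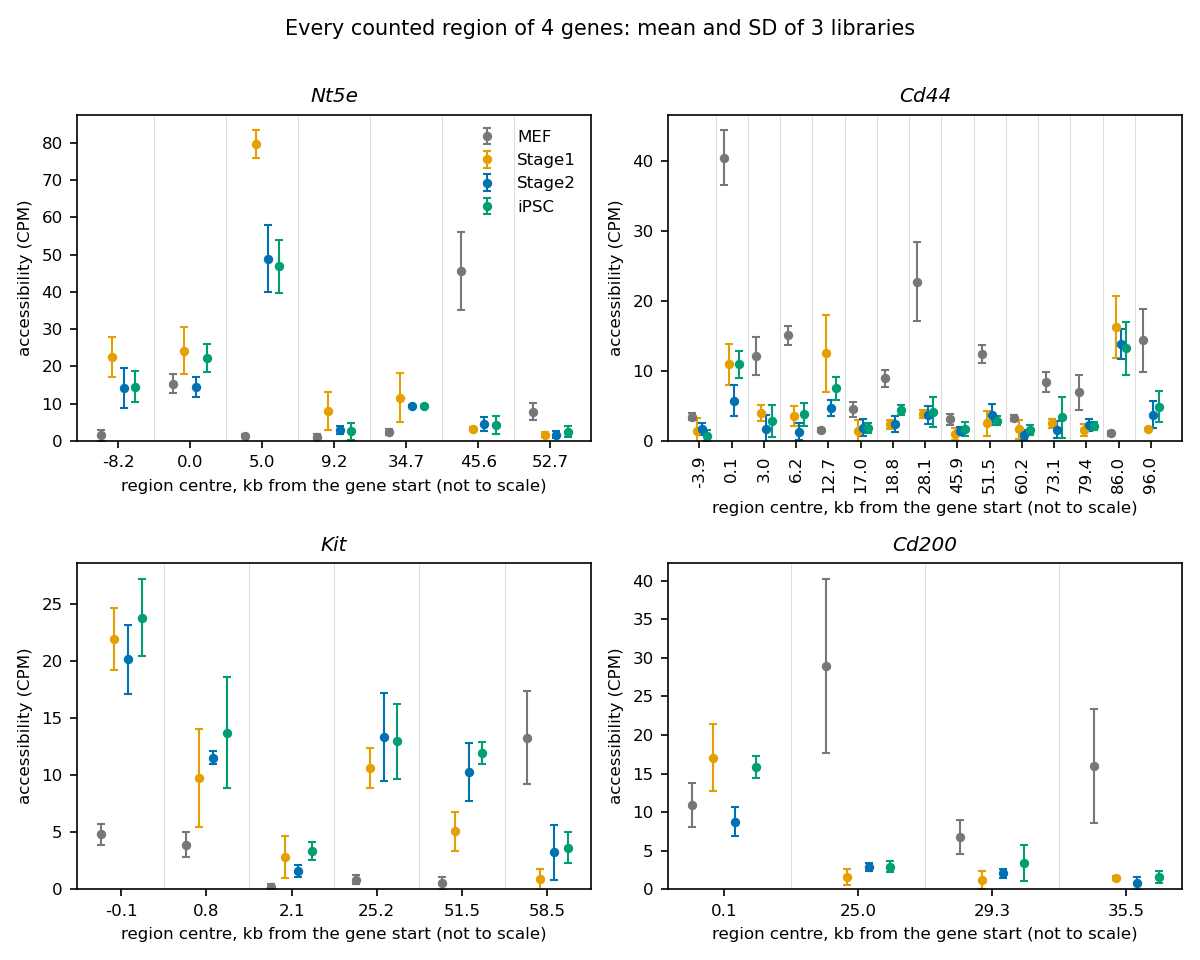
Accessibility (CPM, linear axis from 0) of every counted region of Nt5e, Cd44, Kit and Cd200 in the 4 groups, by distance of the region centre from the gene start in kb, with positions spaced evenly; points and bars are the mean and SD of 3 libraries. Nt5e is highest at 45.6 kb in MEF and at 5.02 kb in the later groups, Cd44 is lower at its start and higher at 86.0 kb after MEF, Kit is higher at 4 tested regions and lower at 58.5 kb, and Cd200 is lower at 25.03 kb.

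Kit, the receptor tyrosine kinase for stem cell factor, had 15, 19.6 and 25.6 CPM in MEF, 52.0, 46.9 and 52.3 CPM in Stage1, 58.7, 60.1 and 60.4 CPM in Stage2, and 83.6, 70.7 and 63.7 CPM in iPSC. Each group lay above the one before it in every library. Set beside the expected background, however, the sum was 3.39 times in MEF, 4.32 times in Stage1, 3.81 times in Stage2 and 3.59 times in iPSC. In Stage1 against MEF the log2 fold change was 1.40 ± 0.16 (adjusted p = 4.39e-12), and in iPSC against MEF 1.93 ± 0.15 (adjusted p = 1.22e-18). Neither Stage2 against Stage1 nor iPSC against Stage2 was called, and both turned negative with whole-library scaling (-0.15 and -0.07), while with regions out to 50 kb iPSC against Stage2 was called higher (0.43, adjusted p = 0.0181). In Stage1 and iPSC against MEF whole-library scaling left 0.47 (adjusted p = 0.111) and 0.25 (adjusted p = 0.373), and regions out to 50 kb 0.39 and 1.15 (adjusted p = 0.00909 and 1.62e-11).

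All 6 regions of Kit lie in or across the gene, none within reach of another gene. Region 1 (chr5:75574601-75575250), over the start, had 24.2, 22.6 and 18.9 CPM in Stage1 against 3.76, 5.44 and 5.22 CPM in MEF, a log2 fold change of 2.19 ± 0.27 (adjusted p = 5.76e-12). Region 5 (chr5:75626251-75626700), 51.5 kb into the gene, had 0, 1.13 and 0.402 CPM in MEF, 4.54, 6.95 and 3.66 CPM in Stage1, 8.82, 13.2 and 8.75 CPM in Stage2, and 12.1, 12.8 and 10.9 CPM in iPSC. It rests on 6 reads in all MEF libraries together, and on 20 in Stage1, 51 in Stage2 and 46 in iPSC. Its change in iPSC against MEF was 4.42 ± 0.49 (adjusted p = 2.16e-13), the largest rise of the gene. Region 6 (chr5:75633101-75633800), 58.5 kb into the gene, fell instead, with 0.756, 0 and 1.83 CPM in Stage1 against 9.11, 13.4 and 17.3 CPM in MEF (log2 -3.63 ± 0.52, adjusted p = 1.37e-09). Lists of blood and germ cell markers were also counted, and neither is limited to cells that carry Kit. In Stage1 against MEF, 5 of 11 blood genes tested were called higher and 3 lower, beside 32.4% and 32.7% of all genes. Of 8 germ cell genes 3 were called higher and 1 lower. The summed level of the blood list ranged over 385 to 409 CPM in Stage1 against 277 to 299 CPM in MEF, and that of the germ cell list over 362 to 393 CPM in Stage1 against 406 to 426 CPM in MEF. With whole-library scaling 2 blood genes were higher and 5 lower, and no germ cell gene was higher and 5 were lower. None of the genes with a region was at 0, and their part in the values of Kit was not tested.

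Pecam1 encodes an adhesion protein that binds its like on neighbouring cells. Its sum was 30.4, 27.6 and 26.0 CPM in MEF, 26.4, 37.2 and 31.9 CPM in Stage1, 45.6, 41.7 and 34.6 CPM in Stage2, and 58.6, 62.0 and 55.9 CPM in iPSC. The iPSC libraries were above all others, and Stage1 overlapped MEF. In iPSC against MEF the log2 fold change was 1.06 ± 0.15 (adjusted p = 2.34e-09), but -0.64 (adjusted p = 0.0202) with whole-library scaling, and 0.35 (adjusted p = 0.104) over the gene span alone. The ratio to the expected background was 2.76 in iPSC and 4.49 in MEF. The change in Stage1 against MEF was 0.16 ± 0.16 (adjusted p = 0.403), and over the gene span alone -0.53 (adjusted p = 0.0275).

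The span of Pecam1 and the stretch above its high end behaved differently. Region 5 (chr11:106724201-106724750), 9.19 kb above the high end, had 19.9, 21.1 and 11.8 CPM in iPSC against 1.19, 0.907 and 0.803 CPM in MEF, a log2 fold change of 4.08 ± 0.40 (adjusted p = 5.76e-16). It was already higher in Stage1 than in MEF (3.05 ± 0.46, adjusted p = 7.55e-09). Region 4, 7.69 kb above the same end, had 13.5, 15.1 and 14.5 CPM in iPSC against 8.91, 7.93 and 9.24 CPM in MEF (log2 0.73 ± 0.28, adjusted p = 0.0125), but -0.66 with whole-library scaling, and was not called with the DESeq2 test (adjusted p = 0.0789) or without MEF replicate 2 (0.058). Inside the gene, region 3 (chr11:106669151-106669600) was higher at 12.4 ± 2.05 CPM in iPSC, against 1.35 ± 0.988 CPM in MEF (SD, n = 3 each; log2 3.34 ± 0.42, adjusted p = 1.27e-11). Region 2, below it, was lower at 6.78 ± 3.69 CPM in iPSC, against 14.9 ± 4.08 CPM in MEF (SD, n = 3 each; log2 -1.23 ± 0.33, adjusted p = 0.000432). Of 12 endothelial genes, 4 were called higher and 4 lower in iPSC against MEF, near the shares of all genes given above (32.8% and 32.2%), with summed levels of 568 to 585 CPM in iPSC against 569 to 610 CPM in MEF. With whole-library scaling 1 was higher and 10 were lower. None was at 0, and their part in the values of Pecam1 was not tested.

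Icam1 is the ligand of leukocyte integrins. It had 57.5, 52.3 and 56.8 CPM in MEF, 85.7, 85.8 and 93.8 CPM in Stage1, 103.8, 106.5 and 107.2 CPM in Stage2, and 99.7, 82.6 and 106.1 CPM in iPSC. The later groups were above MEF in every library. In Stage1 against MEF the log2 fold change was 0.68 ± 0.11 (adjusted p = 1.85e-07), and in iPSC against MEF 0.79 ± 0.11 (adjusted p = 6.45e-09), but whole-library scaling turned these to -0.27 and -0.91, the second one called. The ratio to the expected background was 3.29 in iPSC and 6.49 in MEF. Every one of its 7 regions is shared, 2 with Mrpl4 and 5 with Icam4 and Icam5, so the sum cannot be assigned to Icam1 alone. Over the gene span alone, which leaves the start region only, the changes were 1.49 and 2.64 (adjusted p = 0.0041 and 7.83e-09), and within 50 kb 0.33 in Stage1 against MEF.

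The start region of Icam1 (region 2, chr9:21015701-21016050) had 2.38, 2.04 and 1.2 CPM in MEF, 6.05, 4.34 and 4.27 CPM in Stage1, 7.16, 7.80 and 11.4 CPM in Stage2, and 8.53, 12.1 and 9.99 CPM in iPSC. All 9 later libraries were above MEF. Its change was 1.26 ± 0.46 (adjusted p = 0.0108) in Stage1 against MEF and 2.31 ± 0.39 (adjusted p = 1.28e-07) in iPSC against MEF. The first was not called with whole-library scaling (0.54, adjusted p = 0.303) or with equal reads (adjusted p = 0.0592). Region 1, 0.94 kb before the start, rose by 2.86 ± 0.47 in iPSC against MEF (adjusted p = 8.12e-08), and is in the iPSC list alone. The largest region, region 4 (chr9:21030601-21031900), has its centre 2.44 kb past the end of Icam1, within reach of Icam4 and Icam5. It had 29.5, 26.9 and 34.8 CPM in Stage1 against 35.3, 29.7 and 32.1 CPM in MEF, and was called in none of the 6 comparisons on this scale. With whole-library scaling it was called lower in Stage1 (-0.82, adjusted p = 0.0141), Stage2 (-0.92) and iPSC (-1.75), each against MEF, and in iPSC against Stage1 (-0.94, adjusted p = 0.0306). Region 6, 6.16 kb past the end of Icam1, was at 16.7 ± 2.08 CPM in Stage1, against 1.54 ± 0.318 CPM in MEF (SD, n = 3 each), a log2 fold change of 3.42 ± 0.37 (adjusted p = 2.99e-14).

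Itga4 encodes an integrin subunit that binds fibronectin and Vcam1. It had 19.2, 17.1 and 17.2 CPM in MEF, 14.7, 18.6 and 19.8 CPM in Stage1, 20.7, 13.1 and 15.6 CPM in Stage2, and 39.6, 36.6 and 40.5 CPM in iPSC. The first 3 groups overlapped and iPSC stood above them. With whole-library scaling Stage1 and Stage2 were called lower than MEF (-0.97 and -1.45, adjusted p = 0.00285 and 3.67e-06). Its ratio to the expected background was 5.11 in MEF, 2.58 in Stage1, 1.78 in Stage2 and 3.26 in iPSC. In iPSC against Stage2 the log2 fold change was 1.22 ± 0.21 (adjusted p = 7.48e-05), which whole-library scaling left at 0.86 and not called (adjusted p = 0.136). In iPSC against MEF it was 1.11 ± 0.18 (adjusted p = 1.2e-07), where whole-library scaling gave -0.59. Region 1 (chr2:79255001-79256200), over the start, had most of its reads, with 32.7, 32.4 and 31.8 CPM in iPSC against 18.2, 11.4 and 12.8 CPM in Stage2 (log2 1.18 ± 0.24, adjusted p = 0.00261), and was not called with whole-library scaling (0.89, adjusted p = 0.225). It was the 1 member region called in iPSC against Stage2, beside 0.545% of all regions higher and 1.06% lower. The other region, 61.1 kb into the gene, was too low to be tested.

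Fut4 has 1 region (chr9:14751751-14752400), which covers its start and is shared with 1700012B09Rik. As a sum it had 11.0, 9.9 and 9.8 CPM in MEF, 8.8, 18.6 and 4.8 CPM in Stage1, 7.1, 11.3 and 9.5 CPM in Stage2, and 18.3, 11.1 and 13.5 CPM in iPSC. The Stage1 libraries, with 12, 21 and 8 reads, spanned the values of all other groups. The log2 fold change in iPSC against MEF was 0.48 ± 0.28 (adjusted p = 0.122), and -1.22 (adjusted p = 0.00035) and called lower with whole-library scaling, so its direction depended on the scaling. With equal reads it was called higher (0.90, adjusted p = 0.0361). Within 50 kb Fut4 was called lower in Stage1 than in MEF, at -0.59 (adjusted p = 2.04e-05). The ratio to the expected background was 7.46 in MEF, 3.96 in Stage1, 2.55 in Stage2 and 3.05 in iPSC.

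The authors also deposited, for each group, a list of intervals found in all 3 of its replicates, and the counted regions are these 4 lists merged. Of the 52 regions, 37 are in the MEF list (71.2%, beside 74.8% of all regions) and 15 in that of Stage1 (28.8%, beside 31.6%). The lists of Stage2 and iPSC hold 16 each (30.8%, beside 32.2% and 24.4% of all regions). In the MEF list alone stand 28 regions, 53.8% of the members and 56.3% of all regions. Another 15 are absent from the MEF list, as are 29029 of all 115000 regions. Since the lists and the counts come from the same reads, the following is a description. The median ratio to the expected background of the 28 MEF-list regions was 6.03 in MEF, 0.958 in Stage1, 0.776 in Stage2 and 0.867 in iPSC. That of the 15 others was 1.04 in MEF, 5.41 in Stage1, 4.06 in Stage2 and 3.99 in iPSC. Of these 15 others, the 13 that could be tested were called higher in Stage1 than in MEF, as were 94.2% of all tested regions absent from the MEF list. With whole-library scaling Icam1 1 (0.88, adjusted p = 0.154) and Icam1 2 (0.54, adjusted p = 0.303) were not called. Of the 15 tested MEF-list regions 13 were called lower, beside 89.1% of all tested regions of that kind, 1 higher (Kit 2, 0.79 kb from the start) and 1 was not called (Icam1 7).

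**Figure D4:**
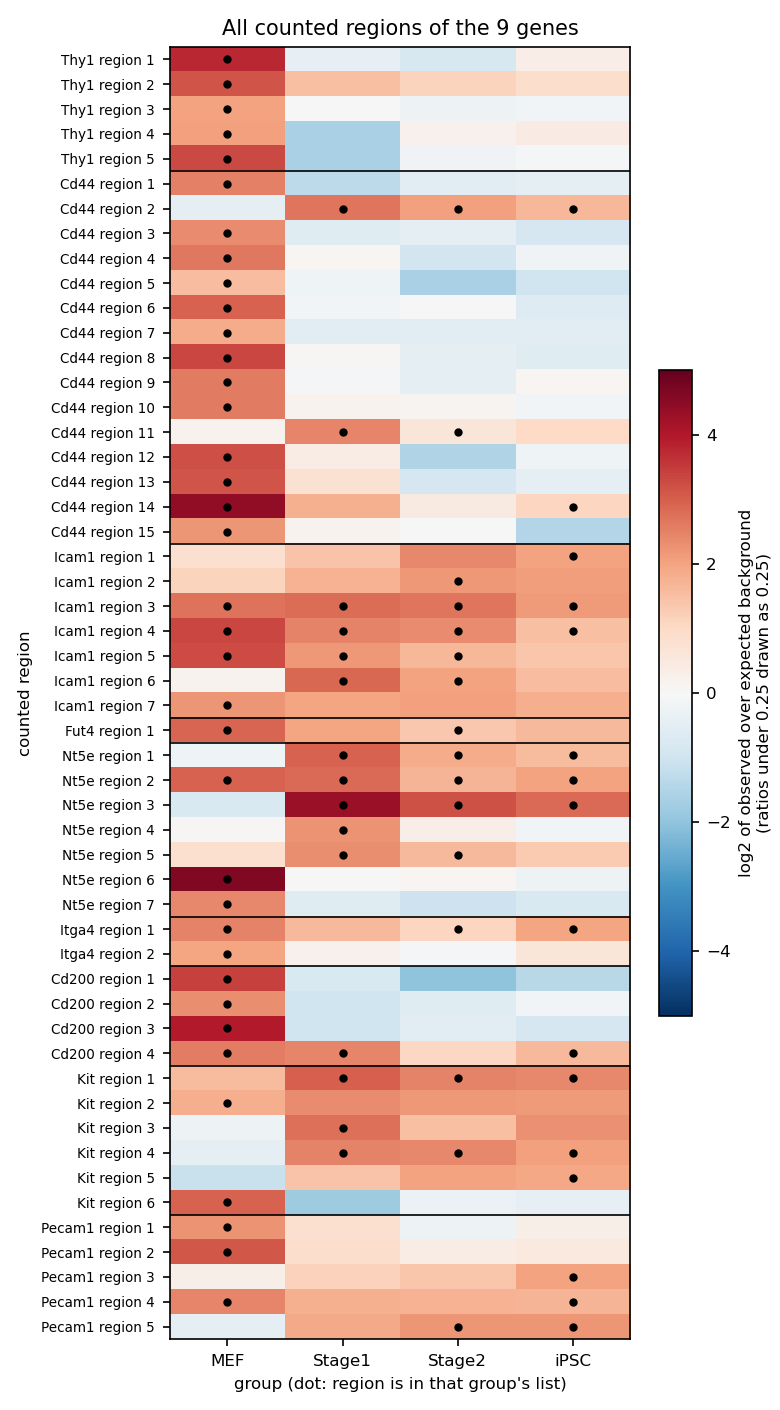
Log2 ratio of the observed level to the expected background (colour) for all 52 regions in the 4 groups; a dot marks a region that is in the list of that group, and ratios under 0.25 are drawn as 0.25. Regions of Thy1, Cd44 and Cd200 that are dark in MEF are paler or blue in the later groups, except Cd200 4, which is about as dark in Stage1, and Nt5e 3 is the darkest region of Stage1.

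The groups after MEF were also compared with each other. In Stage2 against Stage1 no member gene was called higher and 2 were called lower, Nt5e (-0.64 ± 0.11, adjusted p = 3.3e-05) and Cd44 (-0.42 ± 0.14, adjusted p = 0.0324), beside 8.53% of all genes higher and 7.32% lower. The fall of Cd44 was lost with the DESeq2 test (adjusted p = 0.0755), with whole-library scaling (0.0515), with equal reads (0.0513), with regions out to 50 kb (0.0769), and without Stage1 replicate 2 (0.0903), Stage1 replicate 3 (0.142) or Stage2 replicate 1 (0.169). Of the regions 1 was called higher, Icam1 1, and 4 lower, Nt5e 2 and 3, Cd44 11 and Cd200 4, beside 6.14% and 4.3% of all regions. Without Stage1 replicate 3 the count of lower regions was 1, and without MEF replicate 1 it was 7. In iPSC against Stage2 the genes called higher were Itga4, Pecam1 (0.53 ± 0.16, adjusted p = 0.0251) and Cd44 (0.45 ± 0.14, adjusted p = 0.033), and none was called lower, beside 5.8% and 3.62% of all genes. With whole-library scaling none of the 3 was called (0.16 for Pecam1 and 0.10 for Cd44, adjusted p = 0.733 and 0.838). Without Stage2 replicate 2, Stage2 replicate 3 or iPSC replicate 1, Itga4 was the 1 gene called. Pecam1 was also not called without iPSC replicate 2 (adjusted p = 0.105), and Cd44 without Stage2 replicate 1 (0.175) or iPSC replicate 3 (0.178). The DESeq2 test gave Cd44 an adjusted p of 0.0695, and none for Itga4 and Pecam1. In iPSC against Stage1, 4 genes were called higher (Thy1, Itga4, Pecam1, Kit) and 1 lower (Nt5e), beside 15.3% and 10.3% of all genes. With whole-library scaling none of these 4 was called higher (0.30 for Thy1, 0.38 for Itga4, 0.15 for Pecam1 and -0.22 for Kit), and Cd44 (-0.71, adjusted p = 0.0241) and Icam1 (-0.64, adjusted p = 0.0348) were called lower besides Nt5e. Kit was also not called without Stage1 replicate 2 (adjusted p = 0.0575), without iPSC replicate 1 (0.0975) or with regions of no other gene (0.0648).

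Intermediate stages passed both end points at few loci. In Stage1, Nt5e was higher than in both MEF and iPSC (-0.47 ± 0.12 for iPSC against Stage1, adjusted p = 0.00188), as were 4.92% of all genes, and Thy1 was lower than in both, as were 8.44%. With whole-library scaling Nt5e in Stage1 no longer passed MEF (0.24, adjusted p = 0.381). Region 3 of Nt5e (4.62% of all regions) and region 5 of Thy1 (3.16%) carried the same pattern in Stage1. Region 5 of Thy1 rests on 4 reads in Stage1 and 17 in iPSC. Its higher value in iPSC than in Stage1 (2.12 ± 0.68, adjusted p = 0.0231) was not called when any 1 of the 6 libraries compared was left out (adjusted p of 0.0563 to 0.0947), with the DESeq2 test (0.0974) or with whole-library scaling (0.141), which also ended that call for the sum of Thy1. In Stage2, Cd44 was lower than in both end points, as were 3.6% of all genes, with the limits given above for both of its steps. Cd44 was at 1.02 times the expected background in Stage2 and 1.09 times in iPSC (background 49.0 and 63.2 CPM). Thy1 was at 1.06 times in Stage1 and 1.27 times in iPSC (background 12.9 and 22.4 CPM). These differences from iPSC thus lie between sums near the background, but the sums average regions above and below it. Region 2 of Cd44 was at 4.11 times in Stage2 and 3.20 times in iPSC, and region 12 at 0.351 and 0.852 times. Region 2 of Thy1 was at 2.82 times in Stage1 and 1.84 times in iPSC, and region 5 at 0.323 and 0.922 times. None of the 9 genes was higher in Stage2 than at both end points (1.9% of all genes), and no member region lay above (0.827%) or below (0.176%) both there.

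Further surface genes were taken from lists. Of 20 further mesenchymal surface genes, 14 were called lower and 1 higher in Stage1 against MEF (median log2 -0.73, and -0.01 over all genes), led by Vcam1, the partner of Itga4 (-1.48 ± 0.15), and the protease Fap (-1.45 ± 0.25). Of 15 pluripotent surface genes tested, 13 were called higher and 2 lower (median 0.64), led by the Nodal co-receptor Tdgf1 (3.22 ± 0.14) and the alkaline phosphatase Alpl (2.93 ± 0.17). Of 18 relatives of the 9 genes, 9 were called higher and 3 lower (median 0.38). Beside these lists, 32.4% of all genes were called higher and 32.7% lower in this comparison. With whole-library scaling the counts of the lists became 0 higher and 19 lower for the mesenchymal, 4 and 2 for the pluripotent and 1 and 9 for the related genes. Their medians were then -1.68, -0.31 and -0.57, so those of the pluripotent and related genes turned. Cd86, a T cell costimulatory ligand, averaged 37.9 CPM in Stage1 and 2.55 CPM in MEF (4.00 ± 0.26, adjusted p = 4.25e-23), and Entpd2, which hydrolyses extracellular ATP upstream of Nt5e, 31.4 CPM in Stage1 and 11.2 CPM in MEF (1.55 ± 0.20, adjusted p = 3.02e-10). With whole-library scaling Cd86 remained called at 3.07, and Entpd2 stood at 0.62 (adjusted p = 0.0522). In Stage2 against Stage1, Itgb7, which pairs with Itga4, was higher (105.6 CPM in Stage2 and 62.5 CPM in Stage1, 0.77 ± 0.13, adjusted p = 6.52e-06), while Vcam1 fell by 0.80 on the log2 scale. In iPSC against Stage2, Vcam1 was higher at 28.5 CPM in iPSC and 16.5 CPM in Stage2 (0.76 ± 0.23, adjusted p = 0.0249). With whole-library scaling Itgb7 (0.38) and the later change of Vcam1 (0.41) were not called. Of the 15 pluripotent surface genes 3 were called lower in iPSC than in Stage2, beside 3.62% of all genes, among them Itga6 (-0.63 ± 0.16) and Alpl (-0.48 ± 0.16), and none was called with whole-library scaling (adjusted p = 0.0767 for Itga6 and 0.115 for Alpl).

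The order of the groups by mean CPM can be read only where neighbours differed. MEF stood above the next group, iPSC, in Thy1, Cd44 and Cd200 (adjusted p = 2.73e-07, 7.77e-12 and 1.51e-05). Below it the neighbours iPSC, Stage2 and Stage1 of Thy1 did not pass the test, nor did iPSC, Stage1 and Stage2 of Cd200. In Cd44, iPSC and Stage1 did not pass (adjusted p = 0.868), and Stage1 stood above Stage2 with the limits given above (adjusted p = 0.0324). In Icam1 and Kit only the step between Stage1 and MEF passed, in Itga4 only that between iPSC and MEF, in Pecam1 only that between iPSC and Stage2, and in Fut4 none. With whole-library scaling none of these 4 steps was called in that direction: Icam1 (-0.27) and Itga4 (-0.59) turned, and Kit (0.47) and Pecam1 (0.16) were not called. In Nt5e, Stage1 stood above iPSC (adjusted p = 0.00188) and Stage2 above MEF (adjusted p = 5.73e-06, but -0.77 with whole-library scaling).

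By Pearson r of log2 CPM over the 12 libraries, which share groups and depth, the genes most like each of the 9, among those with a mean of at least 5 CPM that share no region with it, were Treml1 for Thy1 (0.98), Dnm3 for Cd44 (0.99), Fam111a for Cd200 (0.97), Mettl4 for Nt5e (0.98), Acrbp for Kit (0.99), Fgf1 for Pecam1 (0.96), Ptpn18 for Icam1 (0.99), Snx20 for Itga4 (0.92) and Mapk8ip3 for Fut4 (0.94). The next were Prss42, Pbp2, Ptgs1, Ncapg2, Cfap20dc, Hpse, Unc5cl, Sgms2 and Klhl5 in the same order.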

How the data were processed

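ATAC-seq read counts in 115000 regions were used for 12 mouse libraries, 3 in each of 4 groups. The values are raw counts, deposited by the authors per library. Per the submitters' processing notes, the build was mm10 and the tools included HTSeq 0.5.4p3, Bowtie2 2.2.6 and Picard 2.6.0, with no role given for any of them. Whether reads were shifted for the Tn5 cut is not given in the sources used here.

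Regions were linked to protein-coding genes (RefSeq, GRCm38.p6) within 10 kb with GenomicRanges 1.54.1, and counts were summed per gene. Reads in no region entered neither library sizes nor tests. Regions and genes were tested separately with edgeR 4.0.16 (R 4.3.3). The filter, filterByExpr, asked for 15 counts in all, and in 3 libraries for the CPM equal to 10 counts at the median library size. TMM scaling, 1 robust quasi-likelihood model of the 4 groups and Benjamini-Hochberg adjustment over 71069 regions or 17540 genes followed. The procedure was also run on simulated counts with known changes in few genes or regions, as many up as down. That setting does not test the scaling under changes as wide as those seen here. Alternatives were DESeq2 1.42.0, other scalings and filters, equal reads, other windows, a replicate block and leaving out each library. Scaling of genes by the region table was added after the data were seen. The 9 genes and all lists were chosen with earlier results of these data known. Regions were named by a rule: over or nearest the start, largest mean, largest rise and fall, and beyond both end points; some further regions were named after their values were seen.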

Additional observations from a re-analysis of the deposited data

How the results depend on the processing

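Whole-library scaling changed most. It left 11 regions higher in Stage1 against MEF and 11 in iPSC against MEF, and 0 higher in Stage2 against Stage1 and in iPSC against Stage2. Of the genes it called 0 higher and 6 lower in Stage1 against MEF, 1 lower in Stage2 against Stage1, 0 higher in iPSC against Stage2, and 0 higher and 8 lower in iPSC against MEF. It turned Icam1 (-0.27) and Pecam1 (-0.79) in Stage1 against MEF, Icam1 (-0.13), Kit (-0.15) and Pecam1 (-0.012) in Stage2 against Stage1, Nt5e (-0.20) and Kit (-0.065) in iPSC against Stage2, and Kit (-0.22), Cd44 (-0.71), Icam1 (-0.64), Cd200 (-0.52) and Fut4 (-0.24) in iPSC against Stage1. It also turned Icam1 (-0.91), Fut4 (-1.22), Nt5e (-0.98), Itga4 (-0.59) and Pecam1 (-0.64) in iPSC against MEF and Icam1 (-0.41), Nt5e (-0.77) and Pecam1 (-0.80) in Stage2 against MEF. Regions that turned in Stage1 against MEF were Nt5e 2 (-0.092), Cd200 4 (-0.072), Pecam1 4 (-0.62) and Icam1 7 (-0.19), and in iPSC against MEF Nt5e 2 (-0.86), Cd200 4 (-0.86), Itga4 1 (-0.45), Pecam1 4 (-0.66), Icam1 3 (-0.47), Icam1 7 (-0.30) and Fut4 1 (-1.22).

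For regions in Stage2 against Stage1, no filter, the DESeq2 test and equal reads each gave 0 higher, and the DESeq2 test 2 lower. In iPSC against Stage2, fitting only the 2 groups and equal reads each gave 2 higher. With equal reads 8 were lower in Stage1 and 8 in iPSC, each against MEF. For genes, the DESeq2 test and equal reads each left 1 lower in Stage2 against Stage1, and regions within 50 kb gave 1 higher (Icam1). In iPSC against Stage2, the DESeq2 test left 0 higher, but it gave no adjusted p for Itga4 and Pecam1. Regions of no other gene and region-table scaling left 1 each. These counts stand without the share of all regions or genes called in the same setting, and are no result about the members.

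Itga4 in Stage1 against MEF was at -0.015 in the main fit, and called lower with whole-library scaling (-0.97, adjusted p = 0.00285). It turned to 0.0012 with DESeq2 size factors, 0.023 with no filter, 0.0026 with the DESeq2 test, 0.012 with only the 2 groups, 0.079 with equal reads, 0.0047 over the gene span, 0.23 within 50 kb and 0.027 with regions of no other gene. In Stage2 against Stage1 it turned to 0.020 with equal reads and 0.34 within 50 kb. Fut4 turned to 0.0048 with the DESeq2 test and 0.41 with equal reads in Stage1 against MEF, and within 50 kb to 0.10 in Stage2 against Stage1 and -0.16 in iPSC against MEF. Over the gene span Pecam1 turned to -0.53 in Stage1 and -0.44 in Stage2, each against MEF, and Icam1 to 0.30 in iPSC against Stage2. Cd200 turned to 0.40 with regions of no other gene in Stage2 against Stage1, and Pecam1 to -0.063 with region-table scaling in Stage1 against MEF. The causes were not tested.

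Over the gene span alone the leading region held 73.7%, 79.1%, 77.4% and 75.0% of the reads of Thy1 in MEF, Stage1, Stage2 and iPSC, 6.99%, 64.7%, 64.4% and 57.9% of Nt5e, 28.2%, 91.0%, 74.9% and 84.6% of Cd200, and 28.8% of Cd44 in MEF, since regions outside the gene leave the sum.

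Leaving out single libraries gave 0 to 1 regions higher and 1 to 7 lower, and 1 to 2 genes lower, in Stage2 against Stage1, and 1 to 4 genes higher in iPSC against Stage2. Fut4 ranged over -0.60 to 0.38 and Itga4 over -0.10 to 0.12 in Stage1 against MEF, and Fut4 over -0.55 to 0.44 and Itga4 over -0.32 to 0.03 in Stage2 against Stage1. Same-numbered libraries did not deviate together (correlations of -0.042 to 0.064, none of 12 above 0.1, own number best 4 times). As the origin of the replicates was not stated, this does not exclude that they share a source. With the replicate block 3 regions were lower in Stage2 against Stage1 and 4 genes higher in iPSC against Stage2, Cd200 among them (0.79, adjusted p = 0.0349). Depth limits Stage1, where Thy1 4 rests on 3 reads in all.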
